A study of Mus musculus with 127 samples.

Results

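The centromere-proximal 5 Mb of the 19 mouse autosomes is described here across 10 single nuclei. Its members are the 10 kb windows of chr1 to chr19 that start from 3 Mb up to, but not including, 8 Mb on the mm10 build. Each chromosome has 500 such windows, 9500 in all, and a cell can locate each of them in both of its 2 position files. The 20 files held 49809 located windows of the interval among 1132635 located autosomal windows. Proximal windows numbered from 2479 in Cell39 to 7018 in Cell25, with a median of 5025 per cell. They were compared with the windows from 50 to 55 Mb of the same chromosomes, called the middle interval, of which 44172 were located. The name is only a label. The interval was set by coordinates and not by chromosome length, so it need not lie at the centre of a chromosome.

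The cells were F123 mouse embryonic stem cells, an untreated hybrid line of CAST x 129 strain background. They were grown with LIF on feeder fibroblasts and passaged without feeders before use. Each nucleus was cut into serial slices (nuclear profiles), the DNA of every slice was amplified and sequenced, and each window received a position along the cutting axis. The profiles carry 1 of 2 title prefixes, B18F for 6 cells (7 to 15 profiles each) and B16F for 4 cells (12 to 23 profiles each). All 122 profiles come from 1 line in 1 condition, and 1 negative and 4 positive controls have no positions, so every comparison below is between regions within the same cells. The files state neither the unit of the axis nor the number of reads, so distances are in axis units (slice positions lie 0.2 apart) and the read depth of a window is unknown.

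Mouse autosomes are telocentric, with the centromere at one end. The sequence assembly opens with an unsequenced gap that stands for the centromere, and the members are the first assembled sequence after it. The gap stands for arrays of minor and major satellite repeats. In interphase the major satellite blocks of several chromosomes join into chromocentres, dense heterochromatic bodies that often lie by the nucleoli or the nuclear edge. In many laboratory strains chromosomes 12, 15, 16, 18 and 19 also carry ribosomal DNA arrays next to the centromere, around which nucleoli form. Those 5 are called the ribosomal DNA chromosomes below. The labels do not say which chromosomes carry the arrays in this hybrid.

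Promoter sequence in the interval is largely duplicated on chromosome 14, which later sections describe further. There 87 of 105 gene promoters (82.9%) in the RefSeq table shared at least 50% of their 25-base words with the promoter of another gene. The share was 42 of 899 (4.67%) in the proximal interval of the other autosomes and 1484 of 27025 (5.49%) in the whole table. In the middle interval it was 14 of 818 (1.71%) over all autosomes and 6 of 119 (5.04%) on chromosome 14. Only promoters were compared, not whole windows. The alpha-takusan genes, a rodent family with many copies, lie in the proximal interval of chromosome 14. Of the 105 promoters, 46 matched another of them at 90% or more of their 250 bases when laid side by side without gaps. The 3 below show how alike 2 distant places in the interval can be. They are the 250 bases before the start of 3 genes on the minus strand, from RefSeq on GRCm38.p6, whose chromosome coordinates are those of mm10. Gm10338 lies at chr14:7595530-7595779, Gm3685 at chr14:7044908-7045157 and Gm21560 at chr14:6219211-6219460. Capitals mark the bases that differ from Gm10338.
Gm10338: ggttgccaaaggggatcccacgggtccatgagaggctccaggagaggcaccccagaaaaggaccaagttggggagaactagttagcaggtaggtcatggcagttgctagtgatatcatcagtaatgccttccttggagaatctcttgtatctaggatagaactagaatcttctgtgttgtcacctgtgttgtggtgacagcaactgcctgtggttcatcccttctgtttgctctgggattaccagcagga
Gm3685: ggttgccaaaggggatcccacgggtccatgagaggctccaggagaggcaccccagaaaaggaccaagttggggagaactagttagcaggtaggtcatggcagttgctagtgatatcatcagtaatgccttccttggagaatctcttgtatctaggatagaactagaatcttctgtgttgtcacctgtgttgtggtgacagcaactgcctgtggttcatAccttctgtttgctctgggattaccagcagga
Gm21560: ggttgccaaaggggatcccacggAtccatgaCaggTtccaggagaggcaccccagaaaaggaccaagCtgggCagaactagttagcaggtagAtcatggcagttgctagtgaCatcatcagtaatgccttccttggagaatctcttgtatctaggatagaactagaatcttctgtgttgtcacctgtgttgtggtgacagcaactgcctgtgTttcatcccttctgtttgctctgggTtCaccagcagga
Gm3685 differed from Gm10338 at 1 of 250 bases and Gm21560 at 10, and 13 promoters of the interval matched Gm10338 at 90% or more. A read within such a stretch can fit more than 1 window, and how the authors placed such reads is not given in the sources used here.

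Proximal windows were located more often than middle windows in each of the 10 cells. Coverage, the share of possible windows that a cell's 2 files located, ran from 13.05% to 36.9% in the proximal interval (median 26.4%), against 12.5% to 33.9% in the middle interval (median 23.8%). The cells overlapped widely in level, but within a cell the proximal interval always stood higher. Mean coverage was 26.2% ± 7.94 proximally and 23.2% ± 6.84 in the middle (SD, n = 10 cells). The log2 ratio averaged 0.17 ± 0.10, or 1.12-fold, and ranged from 0.03 in Cell19 to 0.31 in Cell27. It was above 0 in 10 of 10 cells (exact sign-flip permutation test over cells, two-sided, p = 0.00195, the smallest that 10 cells allow; adjusted p = 0.0127 over the 13 single comparisons made). Within B18F the mean was 0.19 (6 cells, exact p = 0.0312) and within B16F 0.14 (4 cells, exact p = 0.125), each the smallest p its number of cells allows. From file 0 alone the ratio was 0.20 ± 0.52 with p = 0.262 by the exact permutation test. The choice of comparison stretch matters for the size. With both files the ratio was 0.15 against 30 to 35 Mb (exact permutation p = 0.0254). Against 40 to 45 Mb it was 0.13 (exact permutation p = 0.0352).

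The proximal interval was also set beside other stretches of the same chromosomes. Of 11 consecutive 5 Mb intervals from 3 to 58 Mb, it had the highest mean coverage, 1.09 times the cell's mean over all 11, with a range over cells of 1.004 to 1.19. It lay above the mean of the other 10 intervals in 10 of 10 cells and was the single highest interval in 4. The interval next to it, from 8 to 13 Mb, averaged 24.1% ± 7.94 and ranked 6th. The lowest means were those of 48 to 53 Mb, 23.2% ± 6.70, and 53 to 58 Mb, 23.3% ± 7.84, which overlap the middle interval. Without chromosome 14 the proximal interval still had the highest mean, 25.1% ± 7.83, but lay above the mean of the other 10 in 7 cells. The interval from 18 to 23 Mb then stood close to it, at 24.7% ± 7.56. It was the single highest interval in 2 cells, against 3 cells for the proximal one.

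**Figure D1:**
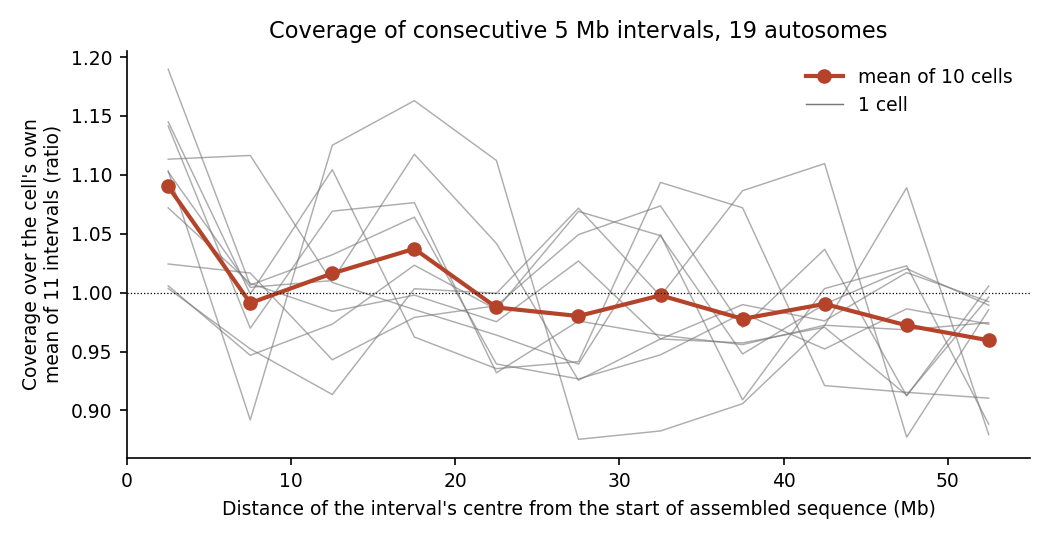
Coverage of consecutive 5 Mb intervals of the 19 autosomes, divided by the cell's own mean over the 11 intervals (vertical axis, ratio), against the distance of the interval's centre from the start of assembled sequence (horizontal axis, Mb). Grey lines are the 10 cells and the red line is their mean. It is highest at the centromere-proximal end, at 1.09, and lies between 0.96 and 1.04 elsewhere.

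Within the first 0.5 Mb the coverage was uneven. It was 27.2% ± 5.04 in the first 50 kb, reached 34.1% ± 8.96 from 100 to 150 kb and was 24.5% ± 8.49 from 450 to 500 kb past the start. In the first 50 kb no file located any window on chromosomes 2, 4, 6, 10, 11 and 15. On chromosomes 10 and 11 the unlocated stretch ran on to 100 kb (chr10:3000001-3100000 and chr11:3000001-3100000). Whether these stretches are assembly gaps could not be checked, and their windows count as possible ones in the shares above. The longest unlocated run of the whole interval was 120 kb at chr19:6690001-6810000.

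Broken down by chromosome, 4 of 19 autosomes were located more often in the proximal interval at an adjusted p under 0.05 (21.1%), and none less often (0%; no chromosome was lower at an unadjusted p under 0.05 either). The 4 are chromosomes 14, 19, 8 and 7. On chromosome 14 proximal coverage was 17.7% at the lowest, 46.9% at the median and 71.2% at the highest, against 8.8%, 33.6% and 56.9% in its middle interval. Every cell was higher proximally, with a mean of 45.9% ± 13.3 against 32.4% ± 12.9 and a log2 ratio of 0.56 ± 0.29 (10 of 10 cells, adjusted p = 0.0186 over 19 autosomes by the exact sign-flip permutation test). On chromosome 19, proximal coverage averaged 23.9% ± 10.1 against 18.3% ± 9.33, and the log2 ratio was 0.44 ± 0.27 (10 of 10 cells, adjusted p = 0.0186, same exact permutation test).

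Chromosomes 8 and 7 had adjusted p = 0.0371 each in that permutation test. Coverage on chromosome 8 was 26.2% ± 12.1 proximally and 16.3% ± 5.30 in the middle interval, which was the lowest middle value of the 19. Of the 500 middle windows of chromosome 8, 81 were in no file, against 17 of its 500 proximal windows. Coverage on chromosome 7 was 28.4% ± 13.3 proximally and 20.5% ± 6.25 in the middle, higher in 8 cells, lower in 1 and equal in 1. The calls on chromosomes 7 and 8 were lost when windows located in no file were left out, which left chromosomes 14 and 19. Both were also lost when any 1 of 8 cells was left out (the exceptions are Cell19, which kept both, and Cell38, which kept chromosome 7), and no chromosome was called with 40 to 45 Mb as the comparison.

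**Figure D2:**
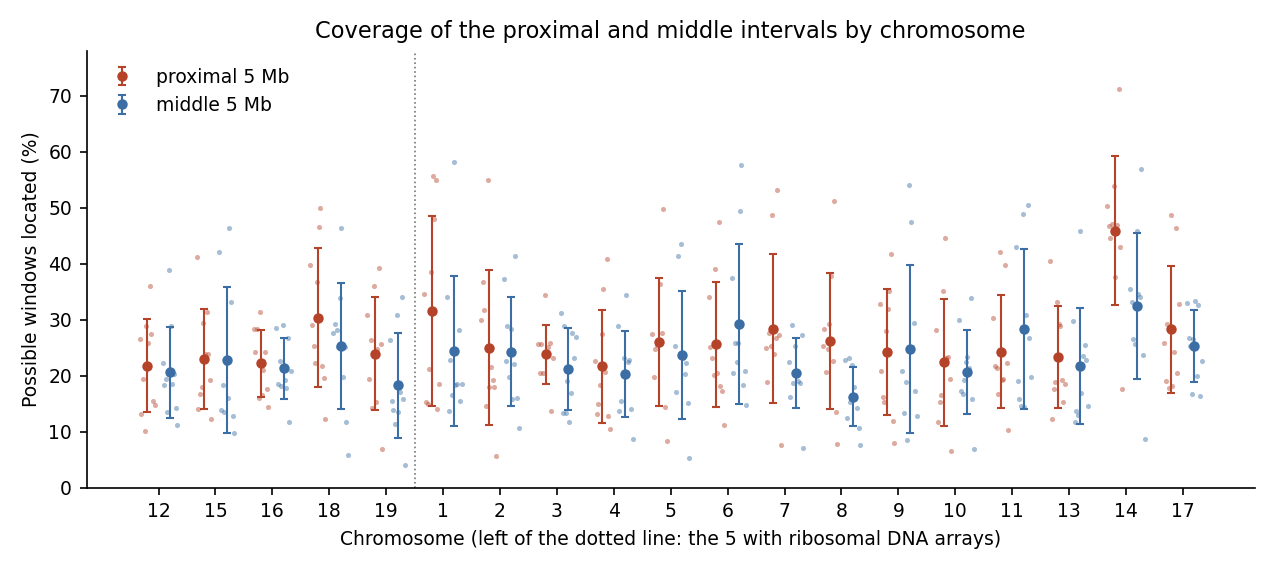
Share of possible windows located (vertical axis, percent) in the proximal interval (red, left of each pair) and the middle interval (blue, right) for each autosome, with the 5 ribosomal DNA chromosomes left of the dotted line. Small points are the 10 cells, and large points with bars are their mean and SD. Chromosome 14 stands highest, at 45.9% proximally.

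Chromosome 14 stood apart from the other proximal intervals in coverage and in how its windows were placed. It had the highest proximal coverage of all autosomes in 6 of 10 cells and never ranked below 5th. In 0.5 Mb steps its mean coverage lay between 38.9% and 51.5% over the whole interval, against 23.6% to 27.5% on the other 18 autosomes. In 9 of these 10 steps it was higher than the others in all 10 cells. From 8 to 8.5 Mb it was 24.9%, against 24.1% on the others, and it was higher in 4 cells. Farther on it was higher again in places, most of all from 17 to 17.5 Mb, at 33.6% against 24.9% (9 of 10 cells), and its middle interval, at 32.4%, also had the highest middle coverage of the 19. These values were chosen for description after chromosome 14 was seen to rank highest, and no test is given for them.

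**Figure D3:**
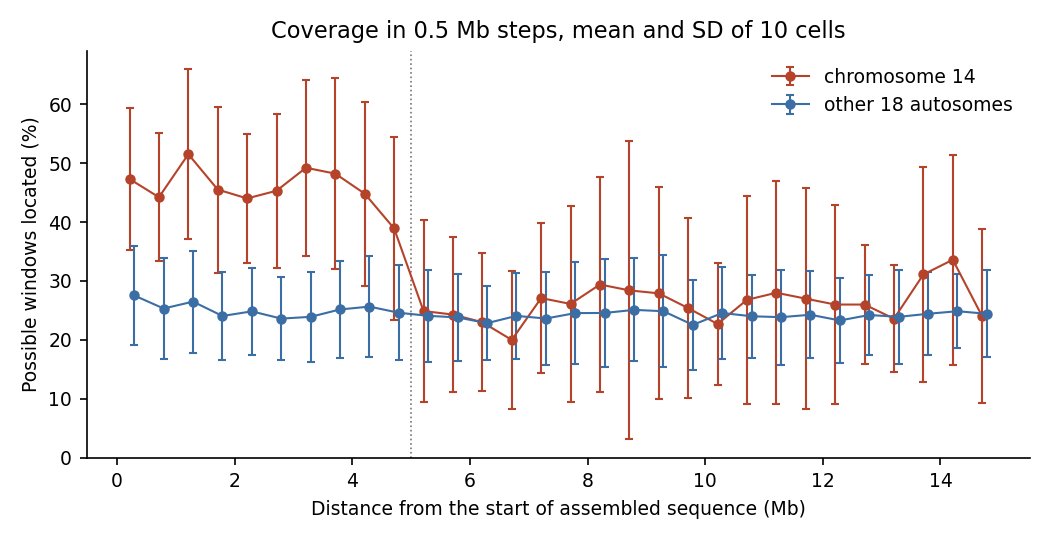
Share of possible windows located (vertical axis, percent) in steps of 0.5 Mb against the distance from the start of assembled sequence (horizontal axis, Mb), for chromosome 14 (red) and the other 18 autosomes together (blue). Points and bars are the mean and SD of 10 cells, and the dotted line marks the end of the proximal interval. Chromosome 14 lies between 38.9% and 51.5% up to that line. Beyond it, it lies between 20% and 33.6%, against 22.55% to 25.1% on the others.

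Positions on chromosome 14 differed as well. A window can lie exactly on a slice position or between 2 of them. The share of proximal windows on a slice position was 21.9% to 91.5% on chromosome 14 (median 43.9%), against 64.0% to 84.1% on the other 18 autosomes (median 71.6%). It was lower on chromosome 14 in 9 of 10 cells, and the exception is Cell39. The mean over cells was 46.4% ± 20.1 there, while the other 18 autosomes ranged from 68.8% to 76.7%. In the middle interval chromosome 14 averaged 70.1% ± 10.1 and the others 73.4% ± 7.68.

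The 2 files of a cell also shared few chromosome 14 windows. If the files were independent, the number located in both would be the product of their shares times 500. On chromosome 14 the proximal number was 0.280 to 0.861 times this expectation (mean 0.529 ± 0.175), under 1 in 10 of 10 cells. On the other 18 autosomes it was 1.08 to 2.06 times (mean 1.46 ± 0.261), and in the 5 Mb that follow on chromosome 14 it was 1.21 to 4.24 times. Duplicated promoters, positions between slices, high coverage and few shared windows thus occurred on the same stretch, and the part of the duplicated sequence in the other values was not tested.

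**Figure D4:**
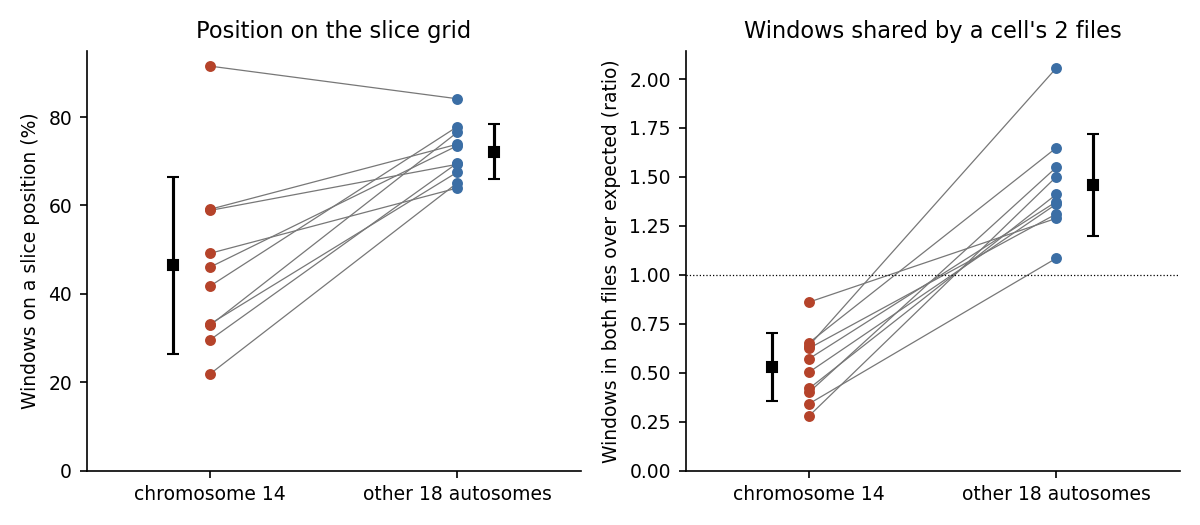
Proximal windows of chromosome 14 (red, left) and of the other 18 autosomes (blue, right) in each of 10 cells, joined by lines. The left panel gives the percent of windows on a slice position and the right panel the number of windows in both files over that expected from independent files, with a dotted line at 1. Black squares and bars are means and SDs. All 10 chromosome 14 values in the right panel lie under 1 and all others above it.

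Across all autosomes together, fewer proximal windows were in both files than the middle interval had, relative to expectation. The ratio was 0.989 to 1.71 proximally (median 1.27), against 1.32 to 2.41 in the middle (median 1.49), so proximal files of most cells still shared more windows than independent files would. The log2 difference was -0.27 ± 0.22, with all 10 cells below 0 (exact sign-flip permutation p = 0.00195, adjusted p = 0.0127). Summed over cells, 13 of 19 chromosomes had the lower ratio proximally. Proximal ratios of all 19 ran from 0.590 on chromosome 14, against 1.29 in its middle interval, to 1.80 on chromosome 11, against 1.55. The choice of comparison stretch matters here. Among the 11 consecutive intervals the proximal one had the lowest mean ratio, but that of 18 to 23 Mb was close to it, 1.32 ± 0.264, and that of 53 to 58 Mb, which overlaps the middle interval, was the highest, 1.61 ± 0.399. Both the proximal and the 18 to 23 Mb interval lay below the mean of the other 10 in every cell. Without chromosome 14 the log2 difference was -0.14 (exact permutation p = 0.0488), and with 40 to 45 Mb as the comparison it was -0.11 (exact permutation p = 0.00977). Without chromosome 14 and without windows in no file, the exact permutation p was 0.0684.

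Single windows ranged from those in no file to those in every file. A proximal window was located in 5.24 of the 20 files on average, against 4.65 for a middle window. The proximal mean was 9.18 on chromosome 14 and 5.02 without that chromosome. In no file were 287 of 9500 proximal windows (3.02%), against 388 of 9500 middle windows (4.08%). In 12 or more files were 218 proximal windows, 62 of them on chromosome 14, against 114 middle windows. In all 20 files were 4 proximal windows and 0 middle windows. The 4 are the first 4 windows of chromosome 9, chr9:3000001-3040000, a stretch known to hold satellite repeat sequence in this assembly. The next most frequent were 2 windows at chr11:3180001-3200000 and the first of chromosome 18, chr18:3000001-3010000, with 18 files each.

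The 4 windows of chromosome 9 lay between slice positions in every file. None of their 80 positions fell on a slice position (0 of 80, which would allow a share of up to 3.75% if the positions were independent counts). They are not independent, since each cell gives 8 of them. Within a cell the 8 positions of these windows, from both files, lay close together, spanning 0.0492 to 0.478 axis units with a median of 0.139, where neighbouring slice positions are 0.2 apart. The windows of chromosomes 11 and 18 named above also lay mostly between slices, with 6 and 7 of 18 positions on a slice for the chromosome 11 pair and 5 of 18 for chromosome 18.

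Proximal coverage was lower on average on the 5 ribosomal DNA chromosomes than on the other 14, but the difference did not pass the test. They held 12129 of the 49809 located proximal windows. Their coverage was 12.2% to 33.3% (median 24.5%), against 13.4% to 39.6% on the other 14 (median 26.6%), with means of 24.3% ± 7.33 and 26.9% ± 8.49. The log2 ratio was -0.15 ± 0.22, with 7 of 10 cells below 0 (exact sign-flip permutation p = 0.0703, adjusted p = 0.229). Without chromosome 14, which is among the other 14, it was -0.06 (exact permutation p = 0.406). In the middle interval the same 5 averaged 21.7% ± 6.94 and the other 14 averaged 23.8% ± 6.88. The difference between the intervals in this log2 ratio was 0.01 ± 0.31, above 0 in 5 cells (exact permutation p = 0.928).

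Among the 5, proximal coverage was 30.3% ± 12.4 on chromosome 18, 23.9% ± 10.1 on chromosome 19, 23.03% ± 8.91 on chromosome 15, 22.2% ± 5.95 on chromosome 16 and 21.8% ± 8.32 on chromosome 12. All neighbours in this order lay within 1 SD of each other. Chromosome 19 alone of the 5 passed the test against its own middle interval.

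How often windows of different chromosomes shared a slice did not differ detectably between the proximal and the middle interval. For 2 autosomes with at least 5 windows each on slice positions of 1 file, the share of window pairs in the same slice was taken and averaged over pairs of chromosomes. It ran from 7.24% in Cell17 to 45.4% in Cell39 proximally (median 16.3%), against 8.97% to 55.4% in the middle interval (median 16.7%). Means were 18.98% ± 11.1 and 19.7% ± 13.7. The log2 ratio was -0.03 ± 0.19, with 5 cells above 0 and 5 below (exact sign-flip permutation p = 0.654, adjusted p = 0.882). Its range over cells was -0.31 to 0.22, or 0.808 to 1.16 times.

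Pairs among the ribosomal DNA chromosomes did not differ detectably from pairs among the other 14. They shared a slice in 7.61% to 43.0% of window pairs (median 15.6%), against 7.14% to 46.1% (median 16.8%). The log2 ratio was 0.05 ± 0.20, above 0 in 6 of 10 cells (exact permutation p = 0.459), and its difference from the middle interval was -0.06 ± 0.27 (exact permutation p = 0.525).

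Distances between chromosomes along the axis did not differ detectably either, and Cell39 alone lay far from 0. The mean distance between proximal windows of different autosomes was 0.376 to 1.20 axis units (median 0.627), against 0.308 to 1.22 between middle windows (median 0.622). Means were 0.650 ± 0.264 and 0.643 ± 0.285 axis units. The log2 ratio was 0.04 ± 0.17, with 6 of 10 cells below 0 (two-sided exact sign-flip permutation p = 0.746, adjusted p = 0.882). In Cell39 it was 0.52, from 0.441 axis units proximally and 0.308 in the middle, while the next highest cell had 0.08. Without Cell39 the mean was -0.0095. Cell39 had the fewest proximal windows, 2479, and the highest share of them on slice positions, 84.7%. Over the 11 consecutive intervals its distance ran from 0.313 at 48 to 53 Mb, which overlaps the middle interval, to 0.518 at 13 to 18 Mb. The proximal 0.441 lay inside this range. Of its windows on slice positions, the fullest slice held 75.3% of the middle ones and 64.4% of the proximal ones.

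**Figure D5:**
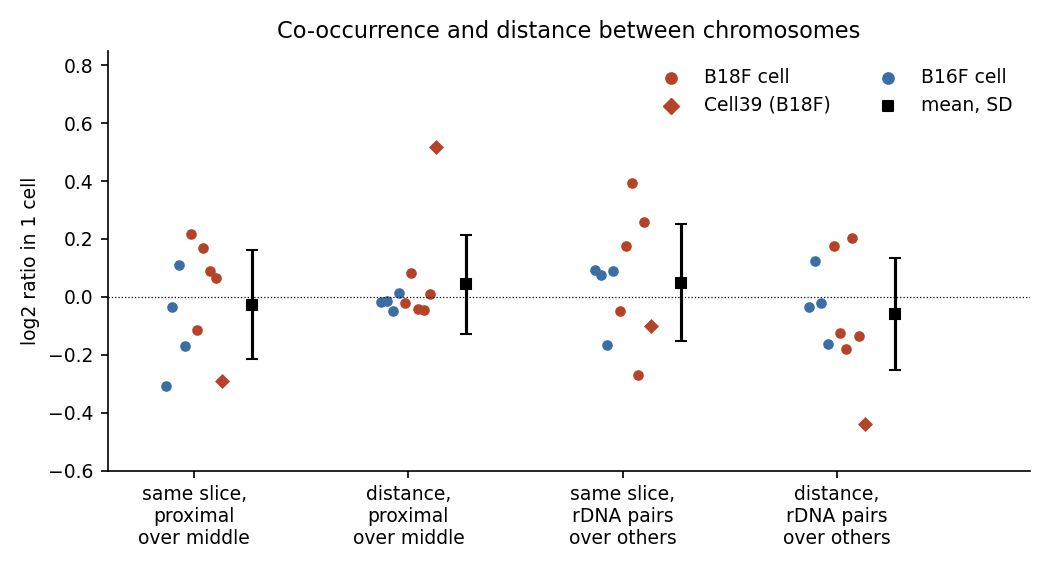
log2 ratios in each cell (vertical axis) for the share of window pairs in the same slice and for the distance between chromosomes, first proximal over middle interval, then ribosomal DNA (rDNA) pairs over pairs of the other 14 chromosomes within the proximal interval. Red points are B18F cells with Cell39 as a diamond, blue points are B16F cells, and black squares with bars are mean and SD. All 4 groups of points straddle 0, and Cell39 lies at 0.52 for distance.

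Of 171 pairs of autosomes, none had a proximal distance that differed from its middle distance at an adjusted p under 0.05 in the exact sign-flip permutation test, and 6 (3.51%) had an unadjusted p under 0.05. All 6 were farther apart proximally on average, with log2 ratios of 0.13 to 0.30, which were 0.10 to 0.15 without Cell39. In 74 of the 171 (43.3%) the proximal distance was the smaller on average. Of the 10 ribosomal DNA pairs, 0 had an unadjusted p under 0.05 and 5 were closer proximally. Their proximal distances spanned 0.615 to 0.663 axis units, with chromosomes 15 and 18 closest and chromosomes 12 and 19 farthest apart, against 0.593 to 0.686 in the middle interval. Over cells, ribosomal DNA pairs averaged 0.637 ± 0.280 axis units proximally and pairs of the other 14 averaged 0.653 ± 0.259. The log2 ratio was -0.06 ± 0.19 (exact permutation p = 0.377), and its difference from the middle interval was -0.04 ± 0.26 (exact permutation p = 0.721).

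No difference was detected in the extent of 1 chromosome's interval along the axis. Windows of 1 proximal interval in 1 file lay 0.595 ± 0.256 axis units apart on average, and those of a middle interval 0.598 ± 0.269 (log2 ratio 0.01 ± 0.14, exact permutation p = 0.916). By chromosome, proximal means ran from 0.493 on chromosome 14 to 0.665 on chromosome 17.

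The same chromosome in the other file lay slightly nearer than a different chromosome did, and more so proximally. The distance between file 0 and file 1 windows of 1 chromosome was 0.805 to 0.986 times that between different autosomes in the proximal interval (median 0.918), against 0.891 to 0.996 times in the middle interval (median 0.949). The log2 difference was -0.04 ± 0.05, with 9 of 10 cells below 0 (exact sign-flip permutation p = 0.00391, adjusted p = 0.0169). It was largest in Cell39, at -0.15. With 30 to 35 Mb as the comparison the value was -0.02 (exact permutation p = 0.447), with 40 to 45 Mb -0.01 (p = 0.252), and without chromosome 14 it was -0.03 (p = 0.0684), so the call did not hold against other stretches of the arm or without chromosome 14. Within B18F it was -0.06 (exact p = 0.0312) and within B16F -0.0085 (exact p = 0.25).

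No difference was detected in how far proximal and middle windows lay from the middle of the axis. As a percentile of the distance from the midpoint among all windows of a file, they averaged 50.3 ± 1.55 and middle windows 51.0 ± 1.82. The difference was -0.67 ± 2.09 percentiles, below 0 in 6 of 10 cells (exact permutation p = 0.344), and it was 1.20 with 30 to 35 Mb as the comparison (exact permutation p = 0.0996).

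The share of proximal windows was also taken for single slice positions. The files hold 124 slice positions against 122 profiles, because Cell18 has 17 positions for 16 profiles and Cell38 has 11 for 10. Of the 124, 122 held at least 500 autosomal windows. In the richest of these in each cell the share of proximal windows was 1.15 to 1.59 times the cell's share (median 1.34), and in the poorest 0.521 to 0.881 times (median 0.702). For the middle interval the richest slice had 1.06 to 1.61 times (median 1.18), and the proximal value was the larger in 8 of 10 cells. The poorest slice had 0.271 to 0.866 times for the middle interval (median 0.704), so at that end the medians were nearly equal and the lowest value was the middle interval's. The richest proximal slices held 38 to 2418 proximal windows among 695 to 44917 autosomal ones, so some of these ratios rest on few windows. They drew on many chromosomes, with a median of all 19 and a minimum of 12. Of these 122 slice positions, 110 held proximal windows of at least 15 autosomes, and the fewest in any was 9. The richest slice was picked by its value, so these figures describe and are not tested.

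The interval holds more annotated protein-coding genes than the middle one in total, but not on every chromosome. The RefSeq table places 868 in it, against 565 in the middle interval. Chromosome 19 has 183 against 14 in its middle interval, and chromosome 7 has 122 against 8. Chromosomes 1, 3, 6, 9, 13 and 14 have fewer proximally, with 7 against 26 on chromosome 3. Across the 19 autosomes, the log2 ratio of gene number and the log2 ratio of coverage, proximal over middle, had a Spearman rho of 0.17, a description over chromosomes that share the same cells. Among named genes, Rp1, a photoreceptor microtubule protein at chr1:4115673-4409266, was located in 7.47 of 20 files per window and in all 10 cells. Lif, the cytokine that keeps mouse embryonic stem cells undifferentiated, at chr11:4257568-4272514, was in 6.67 files per window and 8 cells. Both lay above the interval's mean of 5.24 files, which is 5.02 without chromosome 14.

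Other genes lay close to that mean or below it. Insr, the insulin receptor gene at chr8:3150922-3279649, had 4.54 files per window over 10 cells. Arid1b, a subunit gene of the BAF chromatin remodelling complex, had 5.08 files per window, and Tiam2, a Rac exchange factor gene, had 5.15, each over 10 cells. Xkr4 had 5.27 over 10 cells. Malat1 and Neat1, the long noncoding RNAs of nuclear speckles and paraspeckles, had 5 files per window in 6 cells and 5.33 in 7 cells. Sox17, an endoderm transcription factor gene covered by 1 window, was in 5 files and 4 cells, and Klf6 had 4 files per window over 5 cells. The imprinted zinc finger gene Peg3 had 3.75 files over 5 cells, and Plag1, another zinc finger gene, had 2.20 files over 3 cells.

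On the ribosomal DNA chromosomes, the most and the least often located gene differed widely. On chromosome 12, Efr3b had 6.25 files per window over 10 cells, while Pomc, the precursor gene of melanocortins and beta-endorphin next to it, had 2 over 3 cells. On chromosome 19, Ppp1ca, a catalytic subunit gene of protein phosphatase 1, was in 11 files and 6 cells, while 9430078G10Rik was in 1 file. On chromosome 16, Dnase1 had 7.50 files over 8 cells and Eef2kmt 1.5 over 3 cells. On chromosome 18, Armc4 had 7.32 files over 10 cells and Mtpap, the mitochondrial poly(A) polymerase gene, 2 over 5 cells. On chromosome 15, Egflam had 5.85 files over 10 cells and Ccdc152 1.67 over 2 cells. These genes were named because they are the extremes of their chromosome, so their values are a description.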

How the data were processed

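Serial nuclear profiles of 10 nuclei were amplified and sequenced, as the labels' protocols describe. The build mm10 and the tools Bowtie2 2.3.5, Trim Galore 0.6.4 and Picard are listed, without roles, in the submitters' processing notes. The 20 deposited files, 2 per cell, list 10 kb windows with a position along the cutting axis, in a unit the file headers do not name. How windows received positions, what the 2 files stand for and how reads of repeated sequence were handled: none of this is stated in the sources used here. No read depth is given, so the number of located windows sets the precision.

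Windows starting from 3 Mb to under 8 Mb on chr1 to chr19 were compared with those from 50 Mb to under 55 Mb. A position counted as on a slice within 1e-06 of the 0.2-unit grid. Chromosomes with fewer than 5 windows in a file were left out of pair measures. Profiles of a nucleus are not replicates, so each cell gave 1 value, with its files combined and chromosomes weighted equally. Ratios for single chromosomes were taken after adding 1 window to each number. Values were tested against 0 by an exact two-sided sign-flip permutation test over the 1024 sign patterns of 10 cells, with Benjamini-Hochberg adjustment over 13 single comparisons, 19 chromosomes or 171 pairs. The labels do not tie cells to cultures, and the p-values therefore reflect only how these 10 cells vary. The title prefix (B18F or B16F) was treated as a batch, and values within each are given. Controls have no positions and were not used.

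Genes were named from a list (Sox17, Malat1, Neat1, Lif, Peg3, Plag1, Insr, Klf6, Rp1, Xkr4, Smarcb1, Tiam2, Arid1b) where they lie in the interval (12 of 13), and as the most and least often located protein-coding gene of each ribosomal DNA chromosome. Members, lists and comparisons were chosen with earlier results of these data known. Gene positions and promoters came from RefSeq (GRCm38.p6), of whose 1907 genes in the interval 1004 had a promoter sequence. Promoters were compared over 250 bases by words of 25 bases. Alternatives were other comparison intervals, single files, windows in 1 file alone, windows in no file left out, the first 1 Mb left out, other slice and pair rules, each batch, each cell left out, and, chosen after seeing the data, chromosome 14 or 8 left out, comparison with mixed proximal and middle pairs, and windows in no file left out together with chromosome 14 or by chromosome. The same-slice and distance comparisons between chromosomes were tried on simulated data, with positions shuffled among the single windows of a file. Such shuffling removes any likeness in position between neighbouring windows. The trial therefore does not show how often these tests call a difference in real cells, and no result here rests on it. The other comparisons, coverage and windows in both files among them, were not part of that trial. Python 3.11.15, numpy 2.4.6, pandas 2.3.3, scipy 1.17.1 and matplotlib 3.10.9 were used.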

Additional observations from a re-analysis of the deposited data

Results flagged for a closer look

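In 1 of 13 comparisons the batches differed at an unadjusted p under 0.05. The log2 ratio of windows in both files over expectation, proximal over middle, averaged -0.16 in B18F (6 cells) and -0.44 in B16F (4 cells), a difference of 0.28 (exact permutation of the batch labels over 210 divisions, two-sided p = 0.0476, adjusted p = 0.495).

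A single cell stood far from the other 9 in 5 of 32 values examined. In independent, normally distributed values such a cell appears in about 1 of 20 groups. The 32 values share the same cells and positions, so the number of flags was not compared with chance. Cell39 accounts for 3 of the 5. Its log2 ratio of proximal over middle distance was 0.52 between chromosomes (next cell 0.08) and 0.39 within 1 chromosome (next cell 0.08), and its value for the same chromosome across the 2 files was -0.15 (next cell -0.07). The others were coverage of chromosome 4 in Cell28, with a log2 ratio of 0.84 (next cell 0.27), and coverage of chromosome 6 in Cell26, at -1.26 (next cell -0.39).

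Outside the autosomes, X and Y, the files located 2789 windows on other sequences of the assembly, 206 to 440 per cell. They stood in exactly 1 of the 2 files in each of the 10 cells, in file 1 for 4 cells and in file 0 for the rest.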

How the results depend on the processing

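Of 155 alternative values that could differ from the main ones, leaving aside those without 1 cell, 139 kept their direction and 126 also kept their side of an unadjusted p of 0.05. Coverage, proximal over middle, stayed positive at 0.13 to 0.22 (log2). Its exact permutation p was above 0.05 with file 0 alone (log2 ratio 0.20, p = 0.262) and in B16F alone (log2 ratio 0.14, p = 0.125). Proximal coverage of the ribosomal DNA chromosomes relative to the others reached p under 0.05 without windows in both files (-0.13, p = 0.0176), with file 0 alone (-0.26, p = 0.0156) and without chromosome 8 (-0.15, p = 0.043), all by the exact permutation test. Its difference between intervals turned negative without windows in both files (-0.073) and in B16F alone (-0.041). Same-slice shares turned positive against 30 to 35 Mb (0.035) and in B18F alone (0.023). For ribosomal DNA pairs, the proximal minus middle difference in same-slice share turned positive against 30 to 35 Mb (0.12), against 40 to 45 Mb (0.10) and without windows in both files (0.035). That in distance turned positive without the first 1 Mb (0.0025), without windows in both files (0.017), with file 1 alone (0.020) and without outermost positions (0.0070). In B16F alone, distances between chromosomes (-0.017) and within 1 (-0.019) turned negative. The same chromosome across the files lost its p against 30 to 35 Mb (-0.019) and 40 to 45 Mb (-0.011), without chromosome 14 (-0.028) and in B16F alone (-0.0085), where 4 cells allow no p under 0.125. Windows in both files lost it in B16F alone (-0.44) and without chromosome 14 and windows in no file (-0.13). Distance from the midpoint turned positive against 30 to 35 Mb (1.20), against 40 to 45 Mb (0.50) and with the median as centre (0.69). Chromosomes called numbered 4, but 0 against 40 to 45 Mb and 2 without windows in no file. Except where fewer cells or windows entered by construction, the cause was not tested. The files give no read depth, so what depth limits cannot be stated.

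Leaving out 1 cell at a time gave 0.15 to 0.18 for coverage, with p = 0.00391 throughout. The other ranges, as log2 values, were -0.18 to -0.10 for ribosomal DNA coverage (exact permutation p = 0.043 to 0.141, under 0.05 in 3 of 10), -0.052 to 0.058 for its difference between intervals, -0.053 to 0.0048 for same-slice shares, 0.011 to 0.085 for those of ribosomal DNA pairs and -0.10 to -0.0042 for their difference, -0.0095 to 0.053 for distance, -0.089 to -0.017 for that of ribosomal DNA pairs and -0.078 to 0.031 for their difference, -0.030 to 0.025 within a chromosome, -0.042 to -0.025 for the same chromosome across files and -0.30 to -0.23 for windows in both files. The midpoint difference was -1.01 to -0.23 percentiles, 2 to 4 chromosomes were called, and 0 pairs.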
